A study of Bos taurus with 3 samples.

Results

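Genes that control clotting and the removal of clots were examined in the rumen of newborn calves. The 9 genes were F3 and its inhibitors TFPI and TFPI2, the protein C pathway receptors THBD and PROCR, the adhesive protein gene VWF, the plasminogen activator genes PLAU and PLAT, and the thrombin receptor gene F2RL2, out of 27270 genes in the count tables. They were chosen by their levels in these same cell classes, so the levels by class are given as a description, with no test.

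Clotting starts when tissue factor, a membrane protein normally kept away from blood, meets factor VII and the cascade that follows makes thrombin, which turns fibrinogen into fibrin. Endothelial cells, which face the blood, hold this back with inhibitors of the tissue factor pathway and with thrombomodulin, which diverts thrombin towards activation of protein C. Fibrin is later taken apart by plasmin, which the urokinase-type and tissue-type activators release from plasminogen, and thrombin also acts on cells through receptors that it cleaves.

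The tissue came from the ventral sac of the rumen of 3 newborn Holstein calves, taken 1 day after birth, and the adult animals of the study were not analysed here. The outer muscle was stripped off, the remaining wall was dissociated with enzymes, and 1 droplet library was made for each animal. All calves form a single untreated group, so there was no comparison between conditions, and the only replicates are the 3 animals. Levels are given as UMIs (unique molecular identifiers, that is counted transcript molecules) of a gene per 10000 UMIs of all genes, summed over the cells of a class in a calf.

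After barcodes with 500 to 4000 genes had been kept and doublets removed, the libraries of calves 1, 2 and 3 held 4695, 9746 and 9601 cells, with medians of 10181, 6487 and 7408 UMIs. Between 9 and 24 cell barcodes were shared by each pair of libraries among kept cells. Clusters of cells were named from marker genes into epithelial, endothelial, fibroblast, mural and dendritic classes. In each class all of its own listed markers in the table, 9 for dendritic cells and 10 for each of the others, had their highest level among these 5 classes. The names came from the same markers, so this is no independent check of them. The classes held 21173 epithelial, 1240 endothelial, 434 fibroblast, 337 mural and 334 dendritic cells. Calf 1 stood apart, with 69 endothelial, 15 fibroblast, 5 mural and 2 dendritic cells, so values for the last 2 classes are also given without it. Most epithelial cells of calf 2 fell into a cluster of their own, in which 6914 of 7107 cells were from that calf.

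F3 (ENSBTAG00000007101), which encodes tissue factor, was a gene of the epithelium. Of its 37465 UMIs in kept cells, 99.5% were in epithelial cells. These were also the largest class, with 21173 cells, so that share partly follows from their number. The epithelial level was 1.52 UMIs per 10000 in calf 1, 1.15 in calf 2 and 3.18 in calf 3, with a mean of 1.95 ± 1.08 (SD, n = 3 calves). Calf 3 was highest, and every calf's epithelial level lay above every level of F3 in the other 4 classes. To compare shares at equal depth, cells were thinned at random to 2000 UMIs each and shallower cells left out. Then 26.7%, 21.2% and 43.5% of epithelial cells of calves 1, 2 and 3 held an F3 UMI, against 71.2%, 51.8% and 78.2% without thinning.

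Fibroblasts came next for F3, at 0.41, 0.31 and 0.43 UMIs per 10000 in calves 1, 2 and 3, from 2, 12 and 20 UMIs. These values did not overlap with the mural ones, which were 0, 0.18 and 0.20. The endothelial level was between 0.032 and 0.12, and 1.50% to 2.50% of thinned endothelial cells held an F3 UMI, with median depths of 3939 UMIs in endothelial and 7689 in epithelial cells before thinning. Endothelial cells are a class expected to lack tissue factor. The summed level of 10 epithelial markers was 5.13 to 8.75 in endothelial cells and 9.64 to 72.1 in fibroblasts, against 173 to 211 in epithelial cells. Per 1000 UMIs of those markers, F3 gave 7.59, 5.45 and 18.3 UMIs in epithelial cells of calves 1, 2 and 3 and 3.83, 8.04 and 23.3 in endothelial cells, while the fibroblast values were 5.63, 14.3 and 44.3. Relative to these markers F3 was therefore no rarer in endothelial cells and fibroblasts than in epithelial cells of calves 2 and 3, and rarer in calf 1, where it rests on 1 and 2 UMIs. The part of epithelial RNA in these values was not tested.

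Among epithelial clusters the level of F3 was lowest in the one led by KRT4, S100A12, S100A2, KRT14 and S100A8, which also had KRTDAP among its leading genes. Its level there was 1.06, 0.46 and 1.13 in calves 1, 2 and 3. In the cluster led by IGFBP2, KRT15 and DAPL1 it was 1.82, 0.93 and 3.72. The keratins KRT5 and KRT15 and the collagen COL17A1, genes known from the basal layer, were among the leading genes of that second cluster. KRT14, which the study used with KRT5 to name basal cells, was among the leading genes of both clusters. In every calf the cluster with KRTDAP was the lower of the pair.

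**Figure D1:**
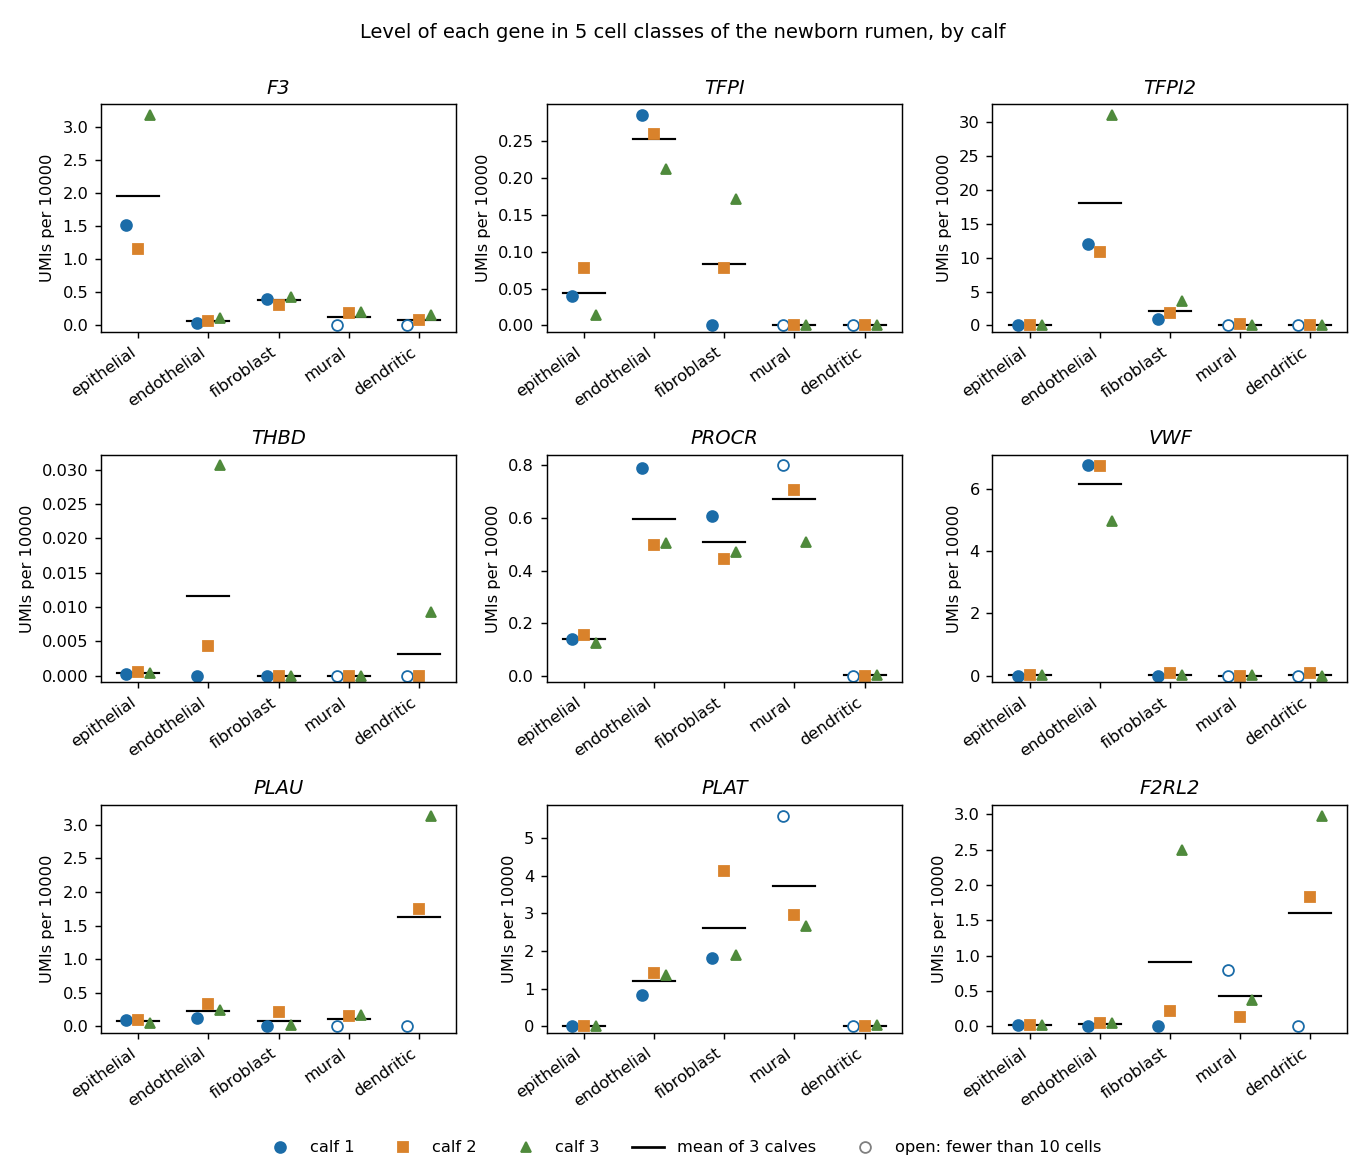
Levels of the 9 genes (vertical axes, UMIs per 10000, scaled separately for each gene) in 5 cell classes (horizontal axes), with 1 point per calf and a bar at the mean of the 3 calves. F3 stood highest in epithelial cells, TFPI, TFPI2 and VWF in endothelial cells, and PLAU and F2RL2 in dendritic cells of calves 2 and 3, while open points rest on fewer than 10 cells.

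The inhibitors of the tissue factor pathway were found on the endothelial side, at very unequal depth of detection. TFPI (ENSBTAG00000049919) encodes the inhibitor of factor Xa and of the complex of tissue factor with factor VIIa. Its endothelial level was 0.28, 0.26 and 0.21 UMIs per 10000 in calves 1, 2 and 3, with a mean of 0.25 ± 0.037 (SD, n = 3 calves), and the calves lay close together. Epithelial cells had 0.040, 0.077 and 0.014, well below, but because there were so many of them they held 83.6% of the 979 UMIs of TFPI. Fibroblasts had 0, 0.078 and 0.17, from 11 UMIs in all, and overlapped with the epithelial cells. In calf 3 the endothelial level was only 1.24 times the fibroblast one. The 15 fibroblasts of calf 1 were too few to place them below endothelial cells. In mural and dendritic cells no UMI of TFPI was found, which allows a level of up to 0.034 and 0.013 UMIs per 10000 over the 3 calves.

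TFPI2 (ENSBTAG00000015844) encodes a related inhibitor of plasmin and other serine proteases that is laid down in the extracellular matrix. Its endothelial level was 12.1 in calf 1, 10.9 in calf 2 and 31.1 in calf 3, a mean of 18.0 ± 11.3 (SD, n = 3 calves). Calf 3 stood far above the other 2, as it did for F3 in the epithelium. A TFPI2 UMI was present in 74.2%, 68.1% and 91.8% of thinned endothelial cells of calves 1, 2 and 3, against 0.20%, 0.29% and 1.13% of thinned epithelial cells. Per 1000 UMIs of 10 endothelial markers, TFPI2 gave 172, 133 and 462 UMIs in endothelial cells and 111, 124 and 487 in epithelial cells, so the small epithelial signal stood in a similar proportion to endothelial markers in calves 2 and 3 and in a lower one in calf 1.

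Fibroblasts also had TFPI2, at 1.01, 1.78 and 3.63 UMIs per 10000 in calves 1, 2 and 3. The endothelial level was 11.9, 6.13 and 8.55 times as high in the same calves, and the values of the 2 classes did not overlap. The summed level of endothelial markers in fibroblasts was only 0.18 to 0.21, against 67.3 to 81.7 in endothelial cells, and CDH5, TIE1 and KDR were at 0 there. Within fibroblasts TFPI2 was found mostly in the cluster of 146 cells that had the matrix and growth genes DLK1 and MFAP5 among its leading genes. There it reached 4.04 in calf 2 and 7.97 in calf 3, against 0.53 and 0.51 in the cluster of 288 cells led by COL3A1, MGP, LUM and CXCL14. Both calves showed the same order, and calf 1, with 7 and 8 cells in these clusters, had 1.56 and 0. COL3A1, MGP and LUM were among the leading genes of both clusters. CXCL14 differed between them, at 124 pooled in the cluster of 288 cells and 1.37 in that of 146.

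THBD, the gene of thrombomodulin, was hardly detected. It gave 23 UMIs in all kept cells, 11 of them in endothelial cells, with 0, 1 and 10 in calves 1, 2 and 3. The endothelial level was 0.031 UMIs per 10000 in calf 3 and 0.0044 in calf 2. No UMI was found in fibroblasts or mural cells, which allows up to 0.033 and 0.034 UMIs per 10000 in these classes. At this depth no order of the classes could be read for THBD.

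PROCR, which encodes the endothelial protein C receptor, was not restricted to endothelial cells. Its mural level was 0.80 in calf 1, from 1 UMI in 5 cells, 0.71 in calf 2 and 0.51 in calf 3. Endothelial cells had 0.79, 0.50 and 0.51, and fibroblasts 0.61, 0.44 and 0.47, so the ranges of the 3 classes overlapped. Without calf 1 the mean mural level was 0.61 ± 0.14 (SD, n = 2 calves), and the lower mural value, 0.508, all but met the higher endothelial one, 0.505. Epithelial cells were lower, at 0.14, 0.16 and 0.12, with no overlap with those 3 classes, and dendritic cells had 1 UMI in all. Because of their number, epithelial cells nonetheless held 84.5% of the 3093 PROCR UMIs. Among fibroblasts PROCR ran the opposite way to TFPI2, at 0.57 and 0.77 in the cluster led by COL3A1, MGP and LUM in calves 2 and 3 and 0.22 and 0.051 in the cluster with DLK1 and MFAP5, the latter from 3 and 1 UMIs.

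VWF, the gene of von Willebrand factor, which tethers platelets and carries factor VIII, had an endothelial level of 6.74 in calf 1, 6.73 in calf 2 and 4.95 in calf 3. The mean was 6.14 ± 1.03 (SD, n = 3 calves), and in contrast to F3 and TFPI2 calf 3 was the lowest of the 3. None of the other 4 classes went above 0.083 UMIs per 10000 in any calf. A VWF UMI was found in 66.1%, 66.4% and 55.4% of thinned endothelial cells and in 0.22% to 0.28% of thinned epithelial cells. Of its 4201 UMIs, 80.0% were in endothelial cells and 13.3% in cells left without a class name. Of 5 platelet genes listed, 3 were in the table. GP9 and GP1BB were at 0 in all 5 classes, so their summed level, at most 0.032 UMIs per 10000 in any class and calf, is that of ITGA2B alone, and the part of platelet RNA in VWF was not tested.

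The 4 endothelial clusters differed in VWF and TFPI2. In the cluster of 138 cells led by CCL14, CLEC3B and GNG11, VWF was at 12.2, 10.4 and 9.11 in calves 1, 2 and 3. In the cluster of 349 cells led by CLEC3B, CLDN5 and VIM, it was at 1.75, 2.40 and 2.04, below every calf's value in the other endothelial clusters. That same cluster had the highest PLAT level of the 4, pooled over calves at 2.53 against 0.47 to 1.37. TFPI2 was highest, at 34.9 pooled, in a cluster of 435 cells, but 357 of these were from calf 3, where the level was 38.7, and the other calves had 11.6 and 16.5 in it. Within calf 3, TFPI2 ran from 13.4 in the CCL14 cluster to 38.7. In calf 2 it ran from 9.22 to 16.5 over the 4 clusters. The higher level of calf 3 was seen in 3 of them, and in the CCL14 cluster calf 2, at 15.9, was above calf 3.

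The pair VWF and PLAT was found together in fewer thinned endothelial cells than their separate shares would give. Both were present in 3, 50 and 48 cells of calves 1, 2 and 3, against 6.61, 61.7 and 67.1 cells from the product of the shares. For TFPI2 and VWF the counts were 28, 194 and 286 against 30.4, 211 and 285. The latter counts were below the product in calves 1 and 2 and at it in calf 3. Cells of a calf are not replicates, and no test was made of either pair.

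**Figure D2:**
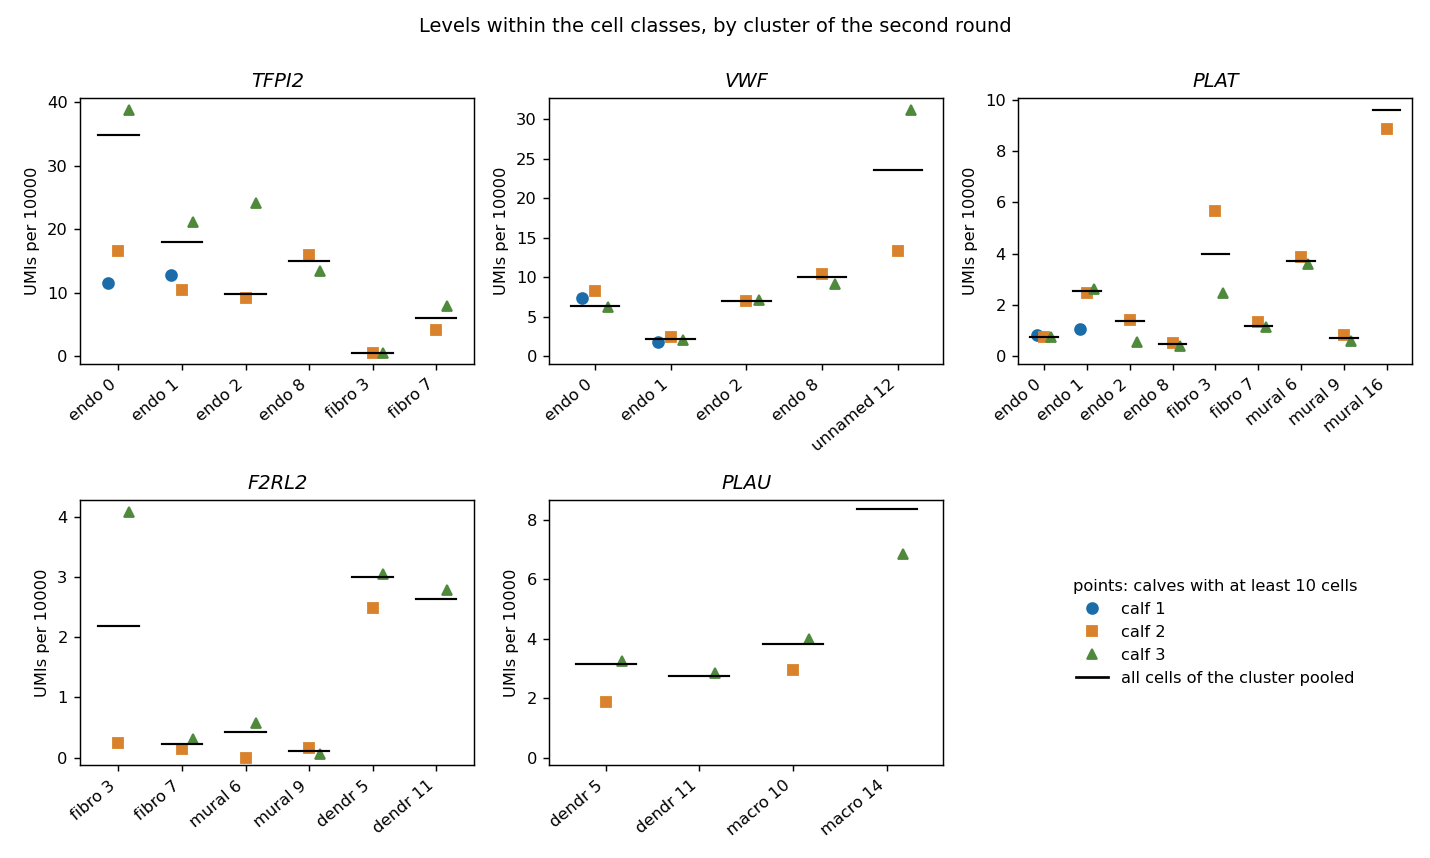
Levels (vertical axes, UMIs per 10000) of 5 genes in clusters within the cell classes (horizontal axes, class and cluster number), with 1 point per calf that had at least 10 cells in the cluster and a bar at the level of all its cells pooled. TFPI2 in fibroblasts lay mostly in cluster 7, with DLK1 and MFAP5, PLAT among mural cells was lowest in cluster 9, with MYH11 and DES, and F2RL2 in fibroblasts rested on cluster 3 of calf 3.

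The plasminogen activators divided between different classes. PLAT, the gene of the tissue-type activator, had its highest levels in stromal cells, at 5.60, 2.96 and 2.66 UMIs per 10000 in mural cells of calves 1, 2 and 3 and 1.83, 4.13 and 1.90 in fibroblasts. These ranges overlapped, and the calf 1 mural value came from 7 UMIs in 5 cells. Without calf 1 the means were 2.81 ± 0.21 in mural cells and 3.01 ± 1.57 in fibroblasts (SD, n = 2 calves), so which of the 2 classes was higher depended on that calf. Endothelial cells had 0.82, 1.42 and 1.36, below every mural and fibroblast value, but being more numerous they held 47.7% of the 1659 PLAT UMIs, against 15.4% in fibroblasts and 15.1% in mural cells. In epithelial cells the level was 0.0070 to 0.015, and 0.12% to 0.36% of thinned epithelial cells held a PLAT UMI, against 38.1% and 35.2% of thinned mural cells of calves 2 and 3.

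Mural cells were not alike in PLAT. In the cluster of 176 cells led by HIGD1B and APOE, with the pericyte gene RGS5 among its leading genes, the level was 3.86 in calf 2 and 3.60 in calf 3. In the cluster of 129 cells led by ACTA2, TPM2 and MYH11, with the smooth muscle genes CNN1 and DES, it was 0.80 and 0.59. Another mural cluster of 32 cells, which joined LUM and COL3A1 to ACTA2 and MYH11, had 9.60 pooled, from 65 UMIs, 26 of its cells being from calf 2. The cluster with CNN1 and DES was the lowest of the 3 in both calves, although the one of 32 cells also had ACTA2 and MYH11 among its leading genes. Among fibroblasts PLAT was 5.67 and 2.46 in calves 2 and 3 in the cluster led by COL3A1, MGP and LUM and 1.32 and 1.12 in the one with DLK1 and MFAP5, the reverse of the order for TFPI2.

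PLAU, which encodes urokinase, was found in dendritic cells at 1.75 UMIs per 10000 in calf 2 and 3.14 in calf 3, while the 2 dendritic cells of calf 1 had no UMI. The mean without calf 1 was 2.44 ± 0.98 (SD, n = 2 calves). After thinning, 37.5% of 16 dendritic cells of calf 2 and 38.9% of 301 of calf 3 held a PLAU UMI, with exact 95% confidence intervals of 15.2% to 64.6% and 33.3% to 44.6%. The corresponding share was 0.97% to 1.97% in epithelial cells, where the level was 0.045 to 0.092. Endothelial cells were next, at 0.13, 0.33 and 0.24, below both dendritic values of calves 2 and 3. Mural cells had 0, 0.16 and 0.16 and fibroblasts 0, 0.21 and 0.021, the last from 1 UMI. Other immune cells had it too. Clusters named macrophage from their markers, 135 cells in all, had 11.3, 4.47 and 4.57 in calves 1, 2 and 3. In calves 2 and 3 the macrophage level was above the dendritic one of the same calf. Epithelial cells, by their number, held 52.2% of the 2613 PLAU UMIs.

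F2RL2, the gene of protease-activated receptor 3, which thrombin cleaves, was found in dendritic cells at 1.83 in calf 2 and 2.98 in calf 3, with no UMI in the 2 cells of calf 1. Both dendritic clusters had it, at 3.00 and 2.63 pooled. Endothelial and epithelial cells had at most 0.052 in any calf, and mural cells had 0.80, from 1 UMI, 0.13 and 0.37. In thinned dendritic cells of calf 3, 117 cells held PLAU, 127 held F2RL2 and 45 held both, against 49.4 from the product of the shares.

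Fibroblasts differed widely between calves in F2RL2. The level was 0 in calf 1, 0.21 in calf 2 and 2.50 in calf 3, from 0, 8 and 117 UMIs, and the calf 3 value lay among the dendritic ones. Of the 117 UMIs of calf 3, 111 were in the cluster led by COL3A1, MGP and LUM, where F2RL2 reached 4.08 in calf 3 and 0.24 in calf 2, with 148 and 132 cells. After thinning, 24.0% of fibroblasts of calf 3 and 3.23% of calf 2 held an F2RL2 UMI, with exact 95% confidence intervals of 16.2% to 33.4% and 0.39% to 11.2%. The immune markers PTPRC, CORO1A, LCP1, CD53 and LAPTM5, all 5 listed, were at 0 in fibroblasts of every calf. F2R, the gene of the main thrombin receptor, had the same order of calves in fibroblasts, at 1.01, 1.04 and 5.34 UMIs per 10000.

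Other genes of the pathway were read from a list of 48, of which 47 were in the table and 6 had no UMI. The 16 with a mean of at least 0.5 UMIs per 10000 in 1 of the 5 classes are named here, and 31 stayed below that level. By mean over calves, 5 were highest in endothelial cells, 6 in fibroblasts, 1 in mural cells and 4 in dendritic cells, and no gene of the list was highest in the epithelium at that level. Among clotting factors below it, F8, the factor that VWF carries, had an endothelial mean of 0.34, and the fibrinogen gene FGA and the factor genes F7 and F11 had no UMI.

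In endothelial cells the genes named were GAS6, a vitamin K-dependent ligand, GGCX, the enzyme of vitamin K-dependent carboxylation, the annexins ANXA5 and ANXA2, and S100A10, the partner of ANXA2 in plasminogen binding. GAS6 was at 9.85, 7.35 and 6.93 UMIs per 10000 in calves 1, 2 and 3, GGCX at 0.54, 0.64 and 0.91, and ANXA5 at 8.30, 6.39 and 8.37. ANXA2 and S100A10 were broad, with endothelial means of 12.3 and 10.3 and epithelial means of 9.10 and 8.81. Fibroblasts held the highest mean of A2M, the gene of the protease inhibitor alpha-2-macroglobulin, at 1.42, 4.41 and 4.19, and of the serpin gene SERPINI1, which encodes an inhibitor of the tissue-type activator, at 3.25, 2.35 and 5.62. VKORC1, the vitamin K reductase, PROS1, the cofactor protein S, SERPINE2, which inhibits thrombin, and F2R completed the fibroblast group, with means of 2.10, 0.84, 0.82 and 2.47, and SERPINE2 in epithelial cells was close behind at 0.72. THBS1, thrombospondin, was the mural gene, at 4.00, 1.23 and 2.99.

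Among the 5 classes, dendritic cells held the highest mean of F13A1, which encodes the subunit of factor XIII that crosslinks fibrin. Its level was 2.33 in calf 2 and 1.93 in calf 3. Dendritic cells also held the highest mean of PLAUR, the urokinase receptor, at 1.50 and 2.25. The plasminogen receptor gene PLGRKT was at 1.08 and 1.01 there, and the protease gene ST14 at 1.16 and 0.28. The highest class of each of the 16 genes was the same with the mean of calves 2 and 3 alone. The list was not read in macrophages, where PLAU was also found, or in other cells outside the 5 classes.

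**Figure D3:**
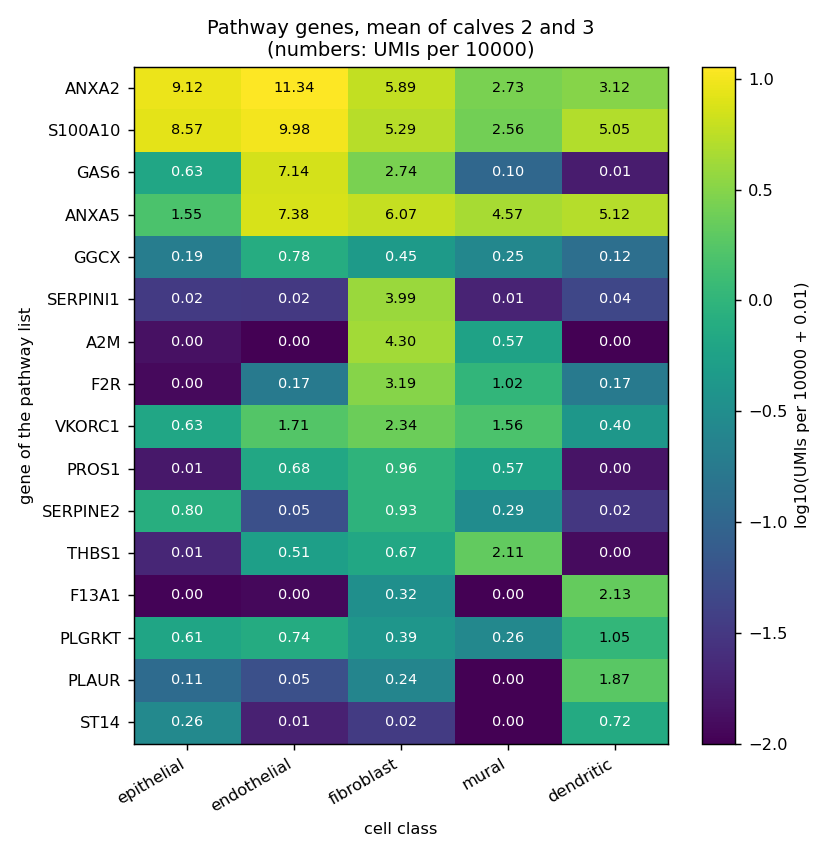
Mean level of calves 2 and 3 (numbers, UMIs per 10000, and colour on a log10 scale) of the 16 named genes of the pathway list (rows) in 5 cell classes (columns). The rows are ordered by their highest class, from ANXA2, with 11.34 in endothelial cells, to ST14, with 0.72 in dendritic cells.

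The genes most like each member were sought over the 15 sums of 5 classes and 3 calves, among 4710 genes with a mean of at least 0.5 UMIs per 10000 in a class, by Pearson's r of log2(UMIs per 10000 + 0.1). The sums of a calf share a library and differ in depth, so r is a description. For F3 they were FGFR2 (r = 0.967), PHGDH and PTPRF, and for VWF they were MEOX1 (r = 0.995), ROBO4 and CDH5. TFPI2 was most like CALCRL (r = 0.980), CLEC3B and STC1, and TFPI most like LIMCH1 (r = 0.956), CD34 and ZNF521. PROCR was most like CAVIN1 (r = 0.967), FERMT2 and EHD2, while PLAT was most like MEOX2 (r = 0.978), PKIG and SYNE1. PLAU was most like PHACTR1 (r = 0.935), NR4A3 and DDB2, and F2RL2 most like TRPS1 (r = 0.892), RASGEF1B and EDEM1. For THBD the most like genes, IFI47 (r = 0.905), CYP1A1 and IFIT1, rest on 23 UMIs.

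Whether the members vary within a class was tested where the choice of members had not used it. Epithelial cells with at least 2 UMIs of KRTDAP, a gene of the spinous layer, among 2000 thinned UMIs were compared with the other epithelial cells of the same calf. F3 was lower in the KRTDAP-positive cells of all 3 calves, at 0.74, 0.48 and 0.56 UMIs per 10000 in the positive cells of calves 1, 2 and 3 and at 1.68, 1.29 and 3.55 in the negative cells, and the groups did not overlap. The positive sums held 190, 249 and 9 cells, so the calf 3 value rests on 1 F3 UMI.

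By edgeR's quasi-likelihood test with calf as a block and Benjamini-Hochberg adjustment, F3 fell by 1.47 on the log2 scale (SE 0.42, adjusted p = 0.00747, lower in 3 of 3 calves). The CPM, scaled by library, was 59.4 ± 13.2 in positive and 217 ± 121 in negative cells (SD, n = 3 calves). F3 was called in a comparison where 10.6% of all 9545 genes tested were called, 5.34% lower and 5.29% higher. TFPI had a log2 difference of 0.84 (edgeR adjusted p = 0.459) and PLAU of -0.51 (edgeR adjusted p = 0.736), and 5 members were too low to be tested. PROCR had 0, 2 and 0 UMIs in the positive cells of calves 1, 2 and 3 and 122, 274 and 175 in the negative cells. It reached the limit on low counts in all 3 calves through the negative cells alone, so its fitted log2 difference of -2.74 (edgeR adjusted p = 0.0164, DESeq2 adjusted p = 0.127) is given as a value and not as a call.

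The call of F3 was lost without calf 1 (log2 difference -1.91, edgeR adjusted p = 0.337) and without calf 2 (-1.78, edgeR adjusted p = 0.523), and over all alternatives its adjusted p ran from 1.59e-05 to 0.523. The fitted difference of PROCR ran from -9.78 to -0.67 over the alternatives. Beside a median log2 difference of -0.15 over all genes, DESeq2's size factors in the same fit gave a median of -0.28 and changed the calls from 505 higher and 510 lower to 500 higher and 807 lower.

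Among the 48 pathway genes 14 could be tested in this comparison. By edgeR's quasi-likelihood test 2 were called higher and 1 lower, against 5.29% and 5.34% of all genes, and by DESeq2 1 higher and 1 lower. ST14, the gene of the membrane protease matriptase, rose by 1.36 on the log2 scale (edgeR adjusted p = 0.01001, higher in 3 of 3 calves), a call that DESeq2 did not make (adjusted p = 0.0888). The other 2 calls were of genes that reached the limit on low counts in all calves on 1 side only, so their values are given and not read further. SERPINI1 reached that limit in 1 positive and 3 negative sums, as SERPINE2 did, and was not called (log2 difference 0.15, edgeR adjusted p = 0.952). SERPINB2, which encodes an inhibitor of urokinase known from keratinizing cells, had a CPM of 51.8 ± 29.0 in positive and 0.883 ± 0.556 in negative cells (SD, n = 3 calves). SERPINE2 had 5.08 ± 7.12 in positive and 70.6 ± 21.7 in negative cells. The other 11 did not pass the threshold, and the median log2 difference of the 14 was 0.015, against -0.15 over all genes tested.

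**Figure D4:**
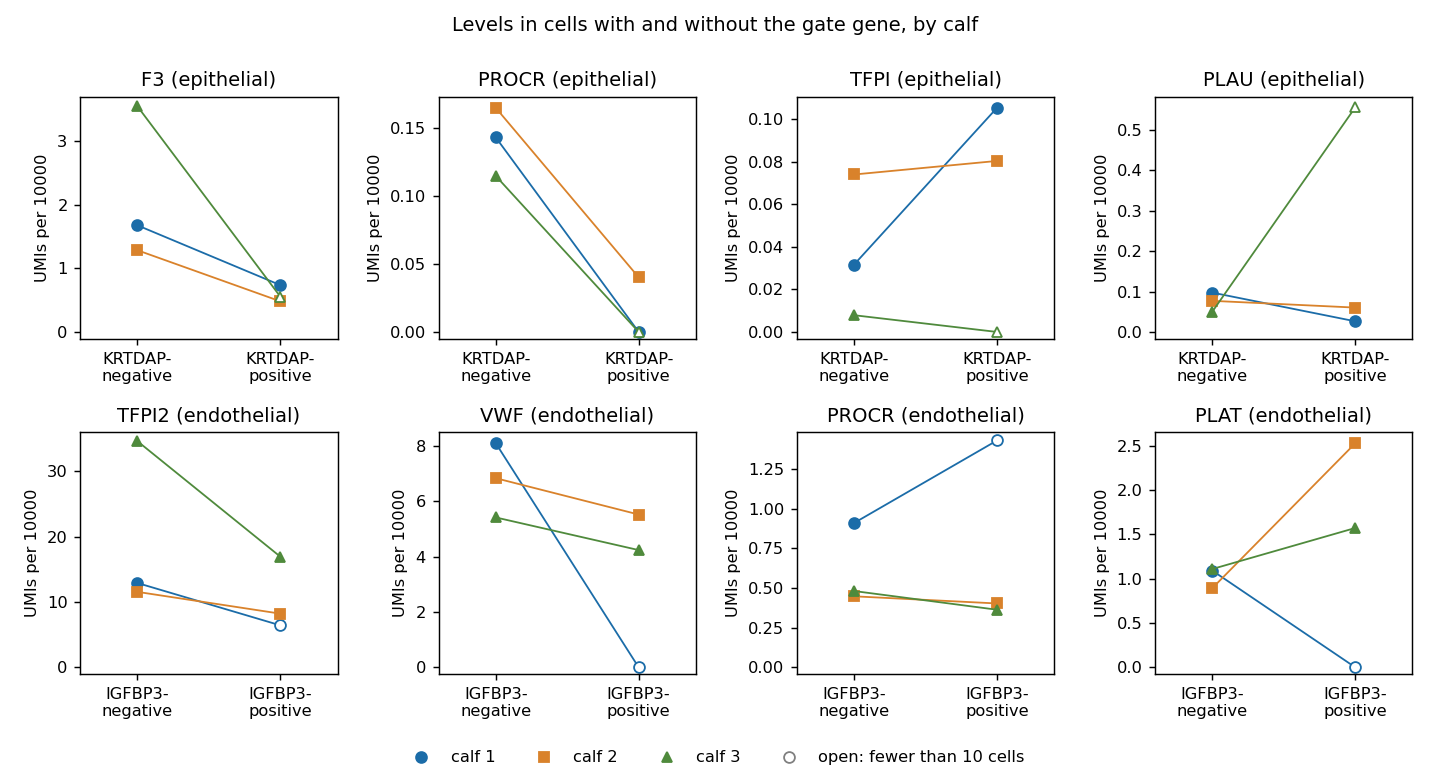
Levels (vertical axes, UMIs per 10000) in cells without and with at least 2 UMIs of the gate gene, for the 4 members tested in epithelial cells (KRTDAP, upper row) and in endothelial cells (IGFBP3, lower row), with 1 line per calf and open points for fewer than 10 cells. F3 in epithelial cells and TFPI2 in endothelial cells were lower in positive cells of all 3 calves, while PLAT was higher in calves 2 and 3 and at 0 in calf 1.

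Endothelial cells were split in the same way by IGFBP3, which encodes a binding protein of insulin-like growth factors, into 7, 87 and 124 positive and 55, 380 and 437 negative cells in calves 1, 2 and 3. TFPI2 was at 6.43, 8.22 and 16.9 UMIs per 10000 in positive and 12.9, 11.6 and 34.6 in negative cells, lower in the positive cells of each calf although the groups overlapped across calves. It fell by 0.94 on the log2 scale (SE 0.26, edgeR adjusted p = 0.0137, lower in 3 of 3 calves). PLAT was at 0, 2.53 and 1.57 in positive and 1.09, 0.89 and 1.11 in negative cells. Its fitted log2 difference was 0.80 (SE 0.25, edgeR adjusted p = 0.0418, higher in 2 of 3 calves). PLAT reached the limit on low counts in 2 positive and 3 negative sums, so this is given as a value and not as a call. VWF had a log2 difference of -0.67 (edgeR adjusted p = 0.154, lower in 3 of 3 calves) and PROCR of -0.30 (edgeR adjusted p = 0.925). Of these 4 members tested, 1 passed the threshold lower and 1, PLAT, higher, against 1.04% and 1.81% of the 3090 genes tested, or 2.85% in either direction.

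Both results past the threshold were fragile. That of TFPI2 was lost by DESeq2 (adjusted p = 0.236), with no filter on low counts (edgeR adjusted p = 0.225), without the block (edgeR adjusted p = 0.9995), without calf 2 (edgeR adjusted p = 0.305) and without calf 3 (edgeR adjusted p = 0.832), and that of PLAT under the same alternatives, without calf 1 (edgeR adjusted p = 0.268), without doublet removal (edgeR adjusted p = 0.341) and with a gate of 3 UMIs (edgeR adjusted p = 0.239). The log2 difference kept its sign in all of them, from -1.21 to -0.83 for TFPI2 and from 0.20 to 1.09 for PLAT. Of the 48 pathway genes 8 could be tested, and edgeR's quasi-likelihood test called 0 of them, DESeq2 also 0, with 0 at an unadjusted p under 0.05. Their median log2 difference was -0.18, against -0.01 over all genes tested.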

How the data were processed

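Per the file headers and the study's methods, the authors deposited whole UMI counts per gene and barcode from Cell Ranger 3.1.0, aligned to the ARS-UCD1.2 cattle genome, without normalization and before quality filters. Kept barcodes had 500 to 4000 genes, no more than 40% of UMIs from 13 mitochondrial genes matched by name, and no more than 50000 UMIs. Doublets were scored against simulated ones and 0.8% per 1000 barcodes removed (191, 908 and 879). Counts were log-normalized, reduced to 30 components from 2000 variable genes that excluded the members, merged by an own implementation of Harmony and clustered by Leiden at a resolution of 0.1, then 0.8 for cells outside the epithelium. Clusters were named from marker lists, so differences from the study may come from rebuilt names.

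Levels are summed UMIs per 10000, and shares were thinned to 2000 UMIs, with exact Clopper-Pearson intervals at 95% and floors of 3 counts, which cover counting error only. Summed thinned counts were tested with edgeR 4.0.16 (filterByExpr, TMM, quasi-likelihood, adjusted p under 0.05), with DESeq2 1.42.0 as an alternative. The edgeR fit was also run on simulated counts with a single dispersion and no differences between calves. That run was therefore no check of the spread in these data. Both sums of a calf come from the same animal and so were paired, with deviations that correlated at 0.249, 0.217 and 0.0927 in calves 1, 2 and 3 for KRTDAP and 0.160, 0.259 and 0.386 for IGFBP3. The gate gene was left out of the counts tested.

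A gene of the pathway list is not reported here. The members and lists were chosen with earlier results of these data known. The text names all members, pathway genes with a mean of at least 0.5 UMIs per 10000 in a class, the 3 genes most like each member, and pathway genes past the threshold in a test. Alternatives were other limits, doublet handling, merging, naming, thinning, filters, normalization, gates and leaving out each calf.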

Additional observations from a re-analysis of the deposited data

Results flagged for a closer look

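Barcodes outside the limit on detected genes entered no comparison, and the members were found in them above the level that a count of 0 allows, except THBD with at most 2 UMIs. In the 1621 barcodes with over 4000 genes the levels, in UMIs per 10000, were 1.19 for F3, 0.078 for TFPI, 0.422 for TFPI2, 0.093 for VWF, 0.125 for PROCR, 0.087 for PLAU, 0.038 for PLAT and 0.034 for F2RL2. In the barcodes with under 500 genes they were 0.423 for F3, 0.0077 for TFPI, 0.120 for TFPI2, 0.112 for VWF, 0.035 for PROCR, 0.083 for PLAU, 0.029 for PLAT and 0.019 for F2RL2. With no upper limit on genes the barcodes over 4000 genes were sorted into classes together with the rest, and F3 was then at 1.79 in epithelial and VWF at 5.73 in endothelial cells. The barcodes under 500 genes were not sorted, and the source of their signal was not tested.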

How the results depend on the processing

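The shares changed with the depth of thinning, which also decided which cells were deep enough to be counted. Not all of them rose with it. In mural cells the mean share of PLAT was 49.4% at 2000 UMIs, above its share at 4000. The mean at 2000 UMIs included 4 cells of calf 1, and without that calf it was 36.7%. The contrast between the depths was therefore not read as an effect of thinning. Thinned to 1000 UMIs, 17.6% of epithelial cells held F3, and 1.79%, 59.5% and 39.8% of endothelial cells TFPI, TFPI2 and VWF. Thinned to 4000 UMIs, the shares were 47.1% for F3, 7.20% for TFPI, 91.5% for TFPI2, 77.4% for VWF, 0.712% for THBD and, in mural cells, 20.4% for PLAT. Without thinning they were 67.1% for F3, 9.78% for TFPI, 75.1% for VWF, 0.583% for THBD and, in mural cells, 15.6% for PROCR. With classes called cell by cell, the mural levels of PROCR and PLAT were 0.467 and 1.89 UMIs per 10000. The other 61 values of levels and 66 of shares moved by less than the SD between calves. All 27 and 27 with 1 calf left out did so too, but that outcome was fixed. Dropping 1 of 3 calves cannot move their mean by more than that SD. Without calf 1 the mean dendritic level of PLAU went from 1.63 to 2.44 UMIs per 10000 and that of F2RL2 from 1.60 to 2.41.

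In the KRTDAP comparison 1015 genes were called, against 600 by DESeq2 and 155 to 1426 when 1 calf was left out. In the IGFBP3 comparison 88 were called, against 54 with no filter on low counts, 19 by DESeq2, 47 with a gate of 3 UMIs and 12 to 52 without 1 calf. Without the replicate block the counts were 837 and 1. The log2 difference of PLAU in KRTDAP-positive cells ran from -0.91 to 0.065 with 1 calf left out, turning without calf 1, and that of PROCR in IGFBP3-positive cells turned to 0.26 with no doublet removal. VWF in IGFBP3-positive cells was called with a gate of 1 UMI (log2 difference -0.58, edgeR adjusted p = 0.0330). The cause of these changes was not tested.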

Other observations

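Several small groups of cells outside the 5 classes had the members too. A cluster of 51 cells led by CCL21, ELN and VWF, left without a name, had VWF at 18.2, 13.4 and 31.2 UMIs per 10000 in calves 1, 2 and 3, from 3, 17 and 31 cells, above the class level of endothelial cells in each calf. It had the endothelial markers CLDN5 in 47, PECAM1 in 40, CDH5 in 40 and PLVAP in 39 of its cells. Its markers scored highest for lymphatic endothelium, but CCL21 was found in only 6 of its cells and PROX1 in 4, and it was not counted in the endothelial class. Its pooled PLAT and PROCR levels, 6.06 and 3.75, rested largely on a single cell of calf 2, which held 85 of 131 PLAT and 42 of 81 PROCR UMIs, and without that cell they were 2.22 and 1.88. The TFPI2 level of the cluster was 8.83 pooled and 8.05 without its own highest cell.

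Among immune cells, a cluster of 38 cells led by SRGN, FCN1, CFD and CXCL8, genes of inflammatory myeloid cells, had PLAU at 8.37 pooled, from 31, 33 and 71 UMIs in calves 1, 2 and 3. The same cluster had F3 at 1.61, with 0, 8 and 18 UMIs in 3, 7 and 28 cells, and no UMI of F2RL2. The cluster of 97 cells led by the complement genes C1QA and C1QC had PLAU at 3.81, F3 at 0.15 and F2RL2 at 1.28. A cluster of 29 cells, all from calf 3 and led by CTSS, PLAC8B and FYB1, had F2RL2 at 1.78, in 34.5% of its cells. These values come from few cells and were not tested.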
